A study of Phyllostachys edulis with 12 samples.

Results

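RNA of moso bamboo seedlings (Phyllostachys edulis), a woody grass grown for timber and shoots, was sequenced and counted over 47091 genes, of which 20 are described here. They were already expressed in unchilled seedlings, had early means under a fixed limit through the first hour of freezing, and were far higher after 24 h. They were chosen by their own measured values, in CPM, a gene's count over the library's total count times 1000000. The highest control library had to reach 1 CPM. Both 24 h libraries had to lie at least 4 times above the highest of the 9 other libraries, and the 0.5 h mean and the 1 h mean each had to stay under 1.5 times the control mean. The late rise is therefore how the genes were found, and its values are given as a description.

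The seedlings were whole plants of 3 weeks at the 3-leaf stage, raised in a greenhouse. Cold-treated seedlings spent 0.5 h, 1 h or 24 h at -2 °C in a freezing chamber, in the light and day length of the controls, and control seedlings had no cold. The labels name no line, genotype or agent beyond the cold. The libraries used were 3 controls, 3 at 0.5 h, 3 at 1 h and 2 at 24 h.

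In plants, chilling first switches on genes for transcription factors and other regulators. The genes that these control tend to rise later, and many encode proteins that shield membranes and other proteins, adjust sugars and lipids, or slow growth. The count table pairs no identifier with a name or description, so no role can be given to any of the 20 genes and no pathway was tested. Except for 2 given by identifier, they are called by their rank in mean CPM at 24 h, from 1 to 20.

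Total counts per library lay between 29304206 and 34543663. The scaling factors of edgeR's TMM method, which correct for a library's make-up, were 0.892 and 0.923 at 24 h and 0.982 to 1.06 elsewhere. With CPM by column total, the median gene at 24 h lay 0.17 below the control on the log2 scale. The members' CPM ratios below are by column total and are not corrected for that shift. Whole seedlings were sequenced, so more cells of a type and more RNA per cell cannot be told apart. The labels do not say whether replicates were separate plants or pools. The p-values thus measure only the spread between these libraries, which may be technical.

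Most genes that met the late limit were too high at an early time to be members. Of the 47091 genes, 33099 reached the control level, and 52 of these met the late limit. The early limit then removed 32, of which 26 were too high at both early times, 5 at 0.5 h alone and 1 at 1 h alone. The 20 left all had enough counts to enter the test across genes. For each limit, the genes outside it are given only from those that met the other limits. The members nearest to the late limit had ratios of 4.46, 4.90 and 4.91, and the nearest such genes outside it had 3.98, 3.97 and 3.89. At the early limit, the nearest members had a larger early mean of 1.46, 1.45 and 1.42 times the control, and the nearest genes outside had 1.52, 1.57 and 1.57. At the control limit, the lowest members peaked at 1.61, 1.74 and 2.70 CPM, and the nearest genes outside at 0.961, 0.899 and 0.837 CPM. The early limit thus cut through a nearly continuous spread of values.

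**Figure D1:**
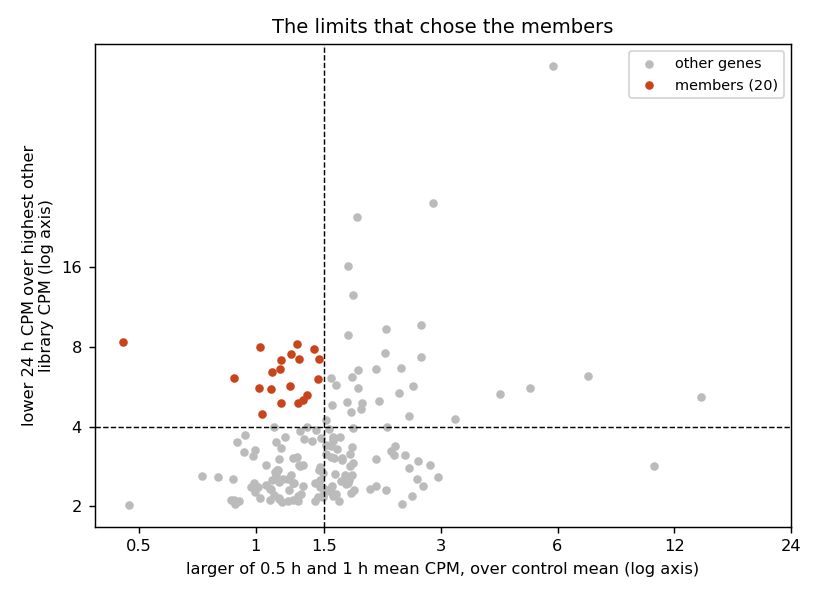
Each point is a gene that reached 1 CPM in a control library and was at least 2 times higher in both 24 h libraries than in any other. The horizontal axis is the larger of its 0.5 h and 1 h means over the control mean, the vertical axis its lower 24 h value over its highest other value, both on log axes, and the dashed lines are the limits of 1.5 and 4; the 20 members fill the upper left.

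After 24 h the members ranged from modest to abundant transcripts. Their mean level at 24 h ran from 9.54 to 729 CPM with a median of 98.2 CPM, and in controls from 1.14 to 80.2 CPM with a median of 10.6 CPM. The ratio of the 24 h mean to the control mean ran from 5.98 to 17.5 with a median of 9.57, and over all 39640 genes tested the median of that ratio was 0.883. A ratio of at least 10 was reached by 8 members. Together the 20 genes took 0.0315% ± 0.00175 of all counts in controls, 0.0355% ± 0.00455 at 0.5 h and 0.0351% ± 0.0041 at 1 h (SD, n = 3 each), and 0.289% ± 0.00605 at 24 h (SD, n = 2). The summed share was nearly flat across the early times, with ranges that overlapped, and far above all of them at 24 h. The rule caps the early means and requires the late rise, so this course is a description.

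The gene ranked 1, PH01000823G0440, had the highest mean CPM of the members in every group. It had 87.4, 83.0 and 70.2 CPM in control libraries, 74.1, 65.7 and 100.3 CPM at 0.5 h, 75.6, 108 and 82.0 CPM at 1 h, and 768 and 690 CPM at 24 h. The early libraries were interleaved with the controls, and both 24 h libraries stood well clear of them. Its fitted log2 fold change at 24 h against the control was 3.35 (SE 0.20). Among all genes in the table it held place 114 by mean CPM at 24 h and place 2065 in controls. It alone gave 25.2% of the members' CPM at 24 h, and the members ranked 1 to 4 together gave 54.0%.

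The member furthest above its other libraries was Phyllostachys_edulis_newGene_2773, ranked 16 by level. Its lower 24 h value was 8.38 times its highest other value. It had 0.713, 2.71 and 2.04 CPM in control libraries, 0.785, 0.472 and 1.24 CPM at 0.5 h, 0.666, 1.07 and 0.415 CPM at 1 h, and 31.7 and 22.7 CPM at 24 h. Its early means were the lowest of the set against the control mean, at 0.456 times at 0.5 h and 0.394 times at 1 h. The early and control libraries still overlapped, because control replicate 1 was low. These early values rest on few reads, 13 to 91 counts per library in the 9 libraries. Its fitted log2 fold change at 24 h against the control was 4.06 (SE 0.52), the least precise of the 20.

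By control level the members were split, after their values were seen, into a higher and a lower group with none between. A wide gap also lay within the higher group, between 39.8 and 80.2 CPM, so the split only serves the description. Those ranked 1 to 10 had control means of 14.6 to 80.2 CPM, and those ranked 11 to 20 had 1.14 to 6.64 CPM. At 24 h the members ranked 10 and 11, neighbours by the ranking itself, had 109 and 87.6 CPM. In controls these genes had means of 18.2 and 5.73 CPM. The gap between them was thus narrower at 24 h as a ratio and wider in CPM. The ranked 12 gene had the largest ratio of group means, 17.5. It had 5.12, 3.78 and 5.04 CPM in control libraries, 4.54, 4.07 and 9.21 CPM at 0.5 h, 4.52, 5.39 and 5.20 CPM at 1 h, and 87.3 and 75.5 CPM at 24 h. Apart from 0.5 h replicate 3, its early libraries lay close to the controls. The ranked 10 gene had the smallest ratio, 5.98. It had 20.5, 18.0 and 16.2 CPM in control libraries, 13.6, 19.0 and 23.9 CPM at 0.5 h, 20.4, 21.6 and 12.1 CPM at 1 h, and 111 and 106 CPM at 24 h.

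**Figure D2:**
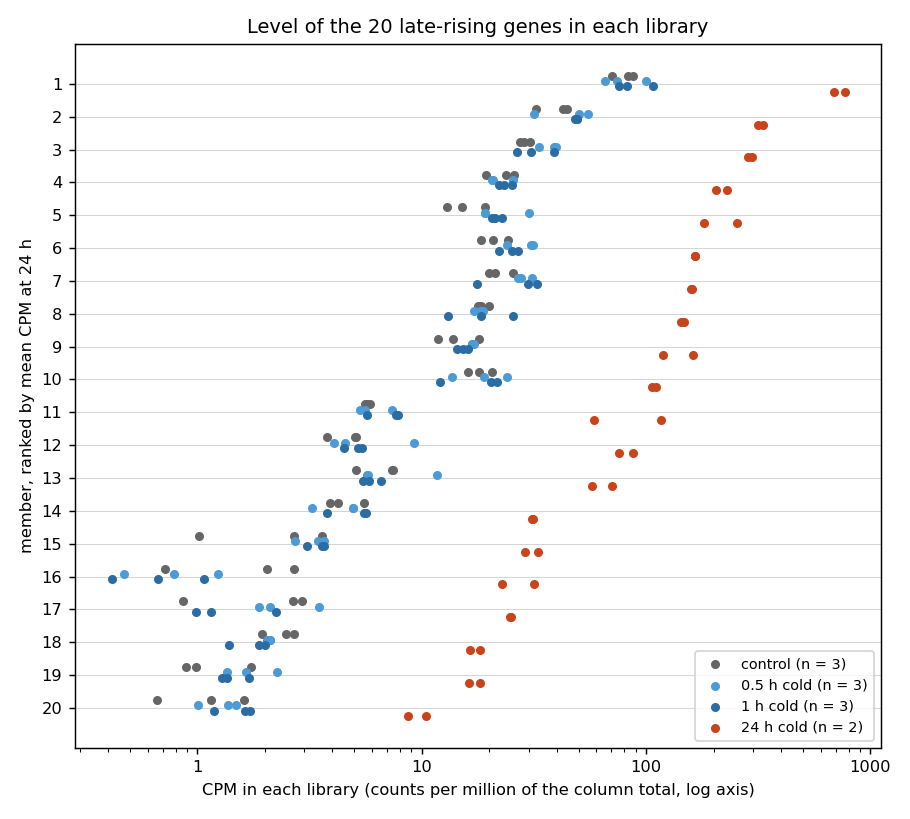
Level of each of the 20 members in each of the 11 libraries, on a log axis of CPM, with members from top to bottom by mean CPM at 24 h and a colour for each group. In every row the 2 points of the 24 h group lie to the right of the other 9; the top row runs from 65.7 CPM at 0.5 h to 768 CPM at 24 h.

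Among all genes of the table, the members stood far higher in rank at 24 h than in controls. The rule requires a rise at 24 h, so this climb is a description. At 24 h, 9 of the members were among the 1000 most counted genes of the table, and in controls none was. Their median place was 1554 at 24 h and 16666 in controls. Counts also grow with transcript length, so levels between genes were set side by side per kilobase of the listed length. That length may include introns and so exceed the transcript, which leaves the order of genes on this scale uncertain. The median member had 39.2 CPM per kb at 24 h and 2.91 in controls, and the median over all genes tested was 1.02 at 24 h and 1.2 in controls. On this scale the ranked 1 gene again stood first, with 650 CPM per kb at 24 h and 71.5 in controls. The ranked 3 gene followed with 153 CPM per kb at 24 h and 15.2 in controls. The ranked 9 gene, listed as 39986 bases long, came last with 3.51 CPM per kb at 24 h and 0.364 in controls.

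The pair of 24 h libraries gave nearly the same level for most members, as for most genes at such levels. The rule sets a floor under the lower 24 h value and so selects against uneven pairs, which makes this a description. The values of 14 of the 20 differed by less than 1.2 times, and 71.4% of the tested genes at or above the lowest member's 24 h level did so. The ranked 7 gene was closest, with 160 and 159 CPM. The ranked 11 gene differed most, with 58.9 CPM in replicate 1 and 116 CPM in replicate 2. Its controls at 5.58, 5.71 and 5.90 CPM were the tightest of the set, with a coefficient of variation of 2.81%. Of the members, 15 were higher in 24 h replicate 1 and 5 in replicate 2, and 43.8% of all genes tested were higher in replicate 1. The median coefficient of variation of the members was 16.4% in controls, 20.8% at 0.5 h, 17.8% at 1 h and 7.50% at 24 h. Over tested genes at or above the lowest member mean it was 14.3%, 13.3%, 16.3% and 7.77%. The members thus varied more between the 0.5 h libraries than the median gene did, and about as much at 24 h. The rule bounds the highest early value and the lower 24 h value, so these spreads are a description. At 0.5 h replicate 3 stood apart, with the median member at 1.26 times its control mean, against 1.11 and 1.01 in replicates 1 and 2.

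edgeR called all 20 members higher at 24 h than in the controls at an adjusted p under 0.05, where it called 3.25% of the 39640 genes tested higher. DESeq2 also called all 20 higher, and 5.57% of those genes. The rule used these same libraries, so nothing is read from either count. The members' fitted log2 fold changes ran from 2.75 to 4.30 with a median of 3.42, and their standard errors from 0.15 to 0.52.

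**Figure D3:**
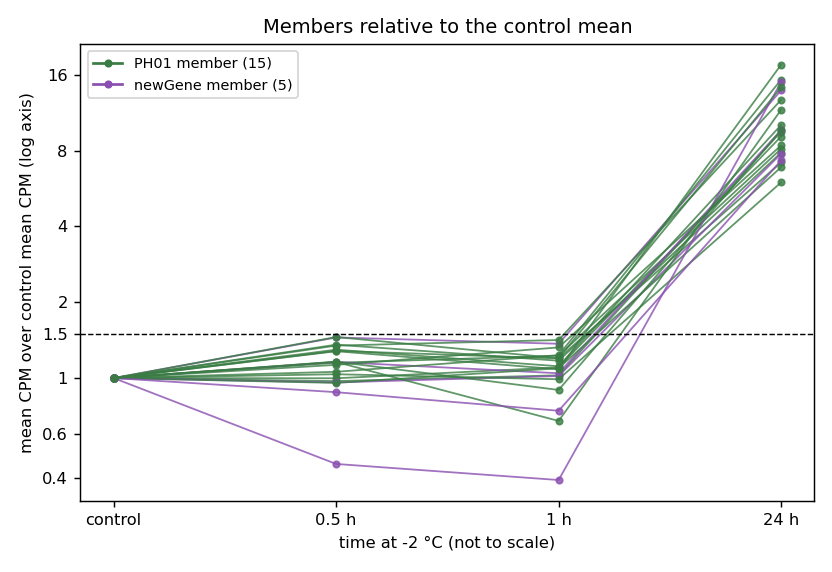
Mean CPM of each member over its control mean, on a log axis, at the control, 0.5 h, 1 h and 24 h, with a line for each gene, coloured by identifier type; the dashed line is the early limit of 1.5. Lines stay between 0.394 and 1.46 at the early times and lie between 5.98 and 17.5 at 24 h.

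Within the early limit, more members had a mean above the control than below it, at 0.5 h and at 1 h with 1 library higher than the others. At 0.5 h, 14 of the 20 had a mean above the control mean and 7 exceeded it by more than 1.2 times. The median ratio at 0.5 h was 1.15 for the members and 0.975 for all genes tested, of which 42.6% lay above the control. In 0.5 h replicates 1, 2 and 3 the median member stood at 1.11, 1.01 and 1.26 times its control mean. All genes tested stood at 0.991, 0.957 and 0.954 there. At 1 h, 15 members lay above the control mean and 5 by more than 1.2 times. The median ratio at 1 h was 1.10 for the members and 1.04 for all genes tested, of which 58.7% lay above the control. The median member stood at 1.00, 1.21 and 1.05 times its control mean in 1 h replicates 1, 2 and 3, where all genes tested stood at 1.02, 1.03 and 1.03. With TMM-scaled CPM, 15 members lay above the control mean at 0.5 h and 13 at 1 h, against 49.3% and 50.5% of all genes tested. Because the limit caps these ratios from above and not from below, they are a description.

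A few members had early libraries that all lay above the controls, within the cap that the rule puts on the early means. All 3 libraries at 0.5 h lay above all 3 controls for 3 of the 20, those ranked 3, 5 and 7, and 3.92% of all genes tested did so. All 3 libraries at 1 h lay above all controls for 2, those ranked 2 and 5, against 7.73% of all genes. The ranked 5 gene, a newGene entry, was thus in both counts. It had 19.1, 13.0 and 15.1 CPM in control libraries, 19.1, 19.2 and 30.1 CPM at 0.5 h, 20.6, 22.7 and 21.2 CPM at 1 h, and 182 and 254 CPM at 24 h. Its separation at 0.5 h was narrow, with the lowest 0.5 h library only just above the highest control.

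The 0.5 h libraries were not alike in these genes. Replicate 3 at 0.5 h was the highest of the 9 control and early libraries for 7 of the 20 members, and for 7.58% of all genes tested. In it the members stood at a median of 1.26 times their control mean, where replicates 1 and 2 at 0.5 h stood at 1.11 and 1.01. All genes tested stood at 0.954 in that library. Replicate 2 at 1 h was the highest for 6 members and for 22.1% of all genes. The ranked 13 gene was among the 7, with 7.44, 5.12 and 7.35 CPM in control libraries, 5.70, 5.79 and 11.6 CPM at 0.5 h, and 5.79, 6.58 and 5.49 CPM at 1 h. Replicate 3 at 0.5 h therefore set the ceiling that the 24 h values of these 7 genes had to clear. Without it, the rule gave 30 genes, 19 of them among the 20. Its part in the early values was not tested.

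The rule does not set the 1 h mean against the 0.5 h mean, but it caps both against the same control mean and so limits how far they can differ. The counts for this step are therefore a description, and no member passed the test. edgeR called 0 of the 20 members at an adjusted p under 0.05, and 0.00252% of all genes, that is, 1 gene. At an unadjusted p under 0.05 it found 1 of the 20 and 6.96% of all genes. DESeq2 called 0 of the 20 and 0.343% of all genes. The single member under the unadjusted threshold was the ranked 3 gene. It had 26.7, 38.8 and 30.7 CPM at 1 h and 39.0, 33.4 and 39.5 CPM at 0.5 h, values that overlap. The fitted difference was -0.31 on the log2 scale (SE 0.13; adjusted p = 0.702 from edgeR).

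The fitted differences between these times were mostly below 0, by a margin that changed with the scaling. Fitted log2 fold changes at 1 h against 0.5 h ran from -0.85 to 0.14 with a median of -0.18, and their standard errors from 0.13 to 0.53. The lowest belonged to the ranked 17 gene, which had 2.23, 0.98 and 1.15 CPM at 1 h and 3.48, 1.89 and 2.10 CPM at 0.5 h, on 32 to 102 counts per library (-0.85, SE 0.44; adjusted p = 0.746 from edgeR). The fitted value of PH01000823G0440 was 0.05 (SE 0.17; adjusted p = 0.981 from edgeR). That of Phyllostachys_edulis_newGene_2773 was -0.30 (SE 0.53; adjusted p = 0.955 from edgeR). By sign alone, 15 members were lower at 1 h and 5 higher with TMM factors, 16 and 4 with RLE factors, and 12 and 8 with library size alone. Of all genes tested, 49.2%, 49.5% and 36.6% were lower at 1 h under these scalings. Libraries within each time were uneven. The median member stood at 1.11, 1.01 and 1.26 times its control mean in 0.5 h replicates 1, 2 and 3. In 1 h replicates 1, 2 and 3 it stood at 1.00, 1.21 and 1.05. Without 0.5 h replicate 3 the fitted value was 0.259 for PH01000823G0440 and 0.125 for Phyllostachys_edulis_newGene_2773. How far the count of signs rests on that library was not tested. In CPM, all 3 libraries at 1 h lay below all 3 at 0.5 h for 2 members, those ranked 9 and 18, and for 3.86% of all genes. The reverse held for 0 members and 10.9% of all genes.

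**Figure D4:**
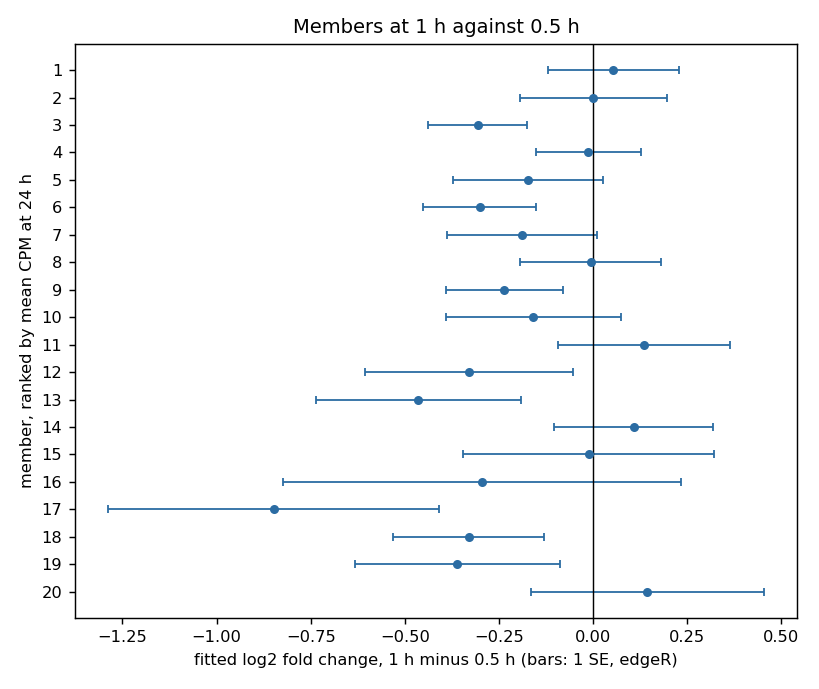
Fitted log2 fold change of each member at 1 h minus 0.5 h, with bars of 1 standard error from edgeR, members from top to bottom by mean CPM at 24 h. Points lie between -0.85 and 0.14, and no member was called.

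The members were mostly genes of short listed length. The table's length column does not state its unit or whether introns are included, and it is taken here as bases. The rule did not use length. Of the 20, 15 carry an identifier of the PH01 type and 5 are entries called newGene, and 27.1% of the genes at the control level are newGene entries. The 15 PH01 members had lengths from 582 to 16700 bases with a median of 1900. The median of all PH01 genes at the control level was 5518 bases, and 14 of the 15 were shorter than that. Among PH01 genes with a control mean in the members' own range the median was 5917 bases.

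Other genes that rose strongly were short as well. The 29 PH01 genes that met the late limit but not the early limit had a median of 1498 bases. Leaving out the members, the 278 other PH01 genes that edgeR called higher at 24 h by at least 4-fold had a median of 2218 bases. All 992 called higher, the members included, had a median of 4050 bases, and the 1275 called lower had 3315 bases. Short length is thus not particular to the members. The lengths of the 5 newGene members ran from 2322 to 39986 bases with a median of 6570, where newGene entries at the control level had a median of 2628. Those ranked 5 and 9 were the longest of the 20, at 31258 and 39986 bases.

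**Figure D5:**
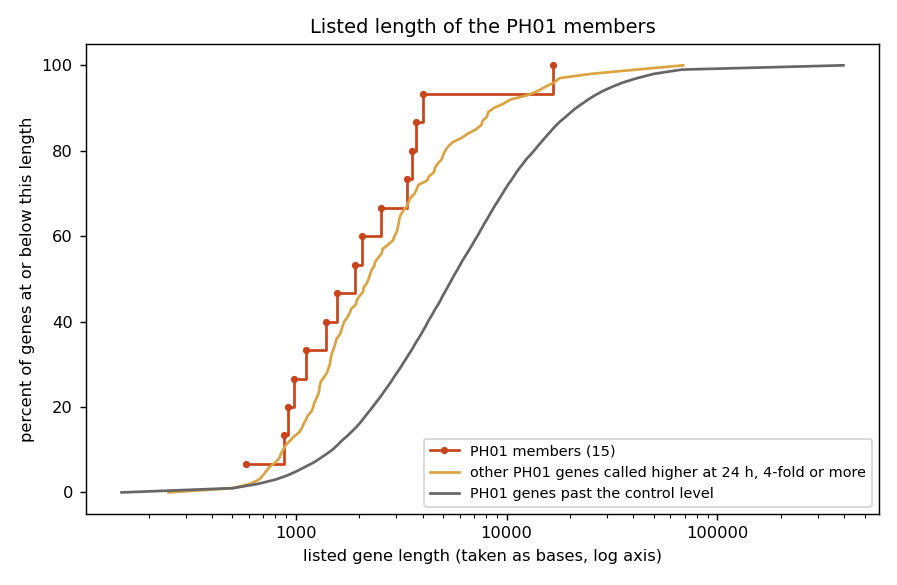
Percent of genes at or below a listed length, on a log axis of length taken as bases, for the 15 PH01 members (stepped line with points), for the other PH01 genes called higher at 24 h by at least 4-fold, and for PH01 genes that reached the control level. The members' curve runs beside that of the strongly risen genes, with medians of 1900 and 2218 bases, and left of the third curve, with a median of 5518.

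The lower group rests on fewer reads than the higher one. A control or early library held under 100 counts for 6 of the 20 members, those ranked 15 to 20, and the lowest such count was 13. At 24 h the lowest count of any member was 259 and the highest 22996. The ranked 20 gene had 8.65 and 10.4 CPM at 24 h, from 259 and 339 counts, against 1.15, 1.61 and 0.659 CPM in the controls, from 20 to 54 counts. The ranked 15 gene had 28.9 and 33.0 CPM at 24 h against 3.60, 1.01 and 2.70 CPM in the controls, where replicate 2 was low, and its ratio of group means was 12.7. The coefficient of variation in controls was 38.3% to 55.8% for 5 of these 6 genes and 16.6% for the ranked 18 gene.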

How the data were processed

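Libraries were made from whole seedlings with RNeasy and NEBNext Ultra RNA kits, per the labels' protocols, and aligned with HISAT2, per the submitters' processing notes. Not given in the sources used here were its version, the build and annotation, the counting tool and the use of strand, which leaves near-identical and overlapping genes uncertain. The authors deposited unnormalized whole-number counts per gene and library, with a gene length. Columns were assigned by the sample codes in the labels. Of the count columns, 1 matched no label and was not used, and 1 labelled 24 h sample was not analysed here. Should the codes of table and labels differ, the 24 h group may include the unused column, and its replicate numbers would shift.

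The tests, designed for 3 libraries at 24 h, were run with 2. In R 4.3.3 with edgeR 4.0.16, filterByExpr kept 39640 of 47091 genes and a quasi-likelihood model with TMM factors and a mean per group was fitted to all 11 libraries (7 residual and 3.86 prior degrees of freedom). Adjusted p-values are Benjamini-Hochberg over every gene tested. DESeq2 1.42.0 was an alternative. A standard error is the log2 fold change over the root of its F. The scripts were tested on simulated data. Libraries of a group differed beyond sampling noise (lowest chi-square per degree of freedom 21.8).

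With no names at hand, the naming rule gave 2 identifiers, the member with the highest mean CPM at 24 h and the member whose lower 24 h value lay furthest above its other libraries. The other members described were picked after their values were seen, and the members and rules were chosen with earlier results of these data known.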

Additional observations from a re-analysis of the deposited data

How the results depend on the processing

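The rule shapes the members' calls, so nothing is read from them. Each run called 20 higher at 24 h and 0 at 1 h against 0.5 h. Runs used RLE factors, library size alone, no low-count filter, DESeq2, the 2 groups alone, the replicate block or a replicate left out of 3. The rule gave 28 genes with TMM-scaled CPM, among them all 20. It gave 38 with a late limit of 3, 12 with a tighter early limit and 35 with an early limit of 2. With a library left out it gave 17 to 30. The median ratio of the 24 h mean to the control mean was 10.7 with TMM-scaled CPM and 8.80 to 10.1 with a replicate left out. In control replicate 1 alone the members took 0.0333% of counts. Over all genes, edgeR called 3008 at 24 h, against 4875 by DESeq2, 1948 when the 2 groups were modelled alone, and 1281 to 2789 with a replicate left out. The lowest of these counts came without replicate 2 of the 24 h group. It was 1357 without replicate 1 of that group, 1873 without replicate 2 of the controls and 1978 without replicate 1 of the controls. The split was 1288 higher and 1720 lower with TMM, and 858 and 2963 with library size alone. At 1 h against 0.5 h edgeR called 1 gene, DESeq2 136, and edgeR 4 with the 2 groups alone. With a replicate left out this count was 1 to 11: 2 without replicate 1 or 2 of the 0.5 h group, and 6, 4 and 11 without replicates 1, 2 and 3 of the 1 h group. In that contrast the log2 fold change of PH01000823G0440 ran from -0.103 to 0.259 with a replicate left out, below 0 without 0.5 h replicate 1 (-0.0123), 0.5 h replicate 2 (-0.0641) or 1 h replicate 2 (-0.103). That of Phyllostachys_edulis_newGene_2773 ran from -0.687 to 0.125, above 0 without 0.5 h replicate 3. Neither was called under any alternative run, and the cause was not tested. A lone 24 h library was taken to vary as the rest do. Replicate numbers were not seen to pair the 1 h and 0.5 h libraries. For 24 h and control, 2 libraries per group were compared, so all correlations share the same size and cannot decide pairing. Deviations from the group mean correlated at -0.085 to 0.034 between same-numbered 1 h and 0.5 h libraries and at -0.016 between same-numbered 24 h and control libraries, and not every library correlated best with its own number. With the replicate block edgeR called 2075 genes at 24 h and 1 at 1 h against 0.5 h. The members ranked 15 to 20 rest on under 100 counts in some control or early library, and every member on 2 libraries at 24 h.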
